A study of Bos taurus with 12 samples.

Results

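The mitochondrial ribosome translates the few messages that mitochondrial DNA encodes, which are subunits of the oxidative phosphorylation complexes. Its ribosomal RNAs are made inside the organelle, while its proteins are encoded in the nucleus, made in the cytosol and imported. The nuclear genes carry the names MRPL, for proteins of the large subunit, and MRPS, for proteins of the small subunit. Oocytes and cleaving embryos live on mitochondria inherited from the egg, and mitochondrial activity is known to increase around the blastocyst stage.

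The genes described here were those whose probe set carried a single gene symbol made of MRPL or MRPS, a number and at most 1 further letter. A gene with several probe sets was read from the brightest of them, averaged over all 12 arrays. This gave 67 genes of the 9155 symbols on the table, 43 named MRPL and 24 named MRPS, on 84 of the 24016 probe sets. A further 11 genes whose symbols have this form in the bovine RefSeq annotation (ARS-UCD2.0), among them MRPL1, MRPL33, MRPL47, MRPS12 and MRPS18C, are not analysed here.

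Pooled cattle embryos were the source of the RNA, measured on 12 Affymetrix bovine arrays in 4 groups of 3. The Day 13 in vitro group held conceptuses grown to Day 13 in recipient heifers after transfer of blastocysts made by in vitro fertilisation and culture. The Day 13 in vivo group held conceptuses grown the same way from blastocysts recovered from superovulated animals. The Day 7 in vitro and Day 7 in vivo groups were the blastocysts of each origin, frozen without transfer. Each Day 13 pool held 5 conceptuses and each Day 7 pool held 25 blastocysts, and recipients had received 10 blastocysts each. All Day 13 conceptuses, of either origin, had therefore spent the days after transfer in a uterus. The study asked how the transcriptome changes as the conceptus begins to elongate, and how embryo origin bears on it.

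The deposited values were log2 intensities normalised by the authors, and 1 unit is a doubling. Between 41.3% and 42% of probe sets exceeded a background of 3.39 on each array, and the correlation of replicate arrays over probe sets lay between 0.963 and 0.991. Of 11 measured trophoblast markers all 11 were above background. Their summed log2 level was 116 to 124 in Day 13 in vitro pools, 101 to 108 in Day 13 in vivo pools, 77.0 to 88.0 in Day 7 in vitro pools and 79.2 to 86.4 in Day 7 in vivo pools. Of 9 hypoblast markers 6 were above background, with a sum of 61.9 to 67.8 in Day 13 in vitro pools, 74.1 to 81.0 in Day 13 in vivo pools, 62.3 to 64.8 in Day 7 in vitro pools and 58.7 to 62.4 in Day 7 in vivo pools. Of 3 epiblast markers 2 were, with sums of 16.6 to 17.8, 20.2 to 23.4, 14.7 to 19.0 and 17.6 to 20.1 in the same order of groups. The sums take in markers under background, and markers of a list did not move together. Between Day 7 and Day 13 in vitro the mean of POU5F1 (epiblast) went from 10.78 to 4.98. That of CRIPTO (epiblast) went from 2.98, under background, to 10.03. Of the 6 hypoblast markers above background, 4 were higher and 2 lower at Day 13 in vivo. APOA1 was at 13.22 against 7.75 and GATA6 at 12.22 against 13.60. Of 7 cumulus cell markers HAS2 was above background on all arrays and TNFAIP6 on the 3 Day 13 in vivo arrays and 1 Day 7 in vivo array. Of 7 endometrial markers 0 were above background on at least 3 arrays, and of 7 leukocyte and blood markers only the globin gene HBB was. These sums do not measure the makeup of the pools, and the part of any change in makeup in the results below was not tested. In whole embryos, fewer cells of a type and less RNA per cell cannot be told apart.

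All 67 genes were expressed: every probe set exceeded background on at least 3 arrays and 65 did so on all 12. The exceptions, MRPL14 and MRPS18A, exceeded it on 11 arrays each. Called means an adjusted p below 0.05 over all 24016 probe sets (limma, Benjamini-Hochberg). Errors on differences are standard errors (SE), and errors on group levels are standard deviations (SD, n = 3).

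Few of these genes passed the test in any comparison. MRPS9 was lower at Day 13 in embryos made in vivo, and MRPS31 and MRPL10 were lower at Day 13 in embryos made in vitro. At either age, 0 were called between origins. The mean of the family differed more among the 3 Day 13 in vivo pools, from 8.69 to 9.94, than among the means of the 4 groups, from 8.94 to 9.47.

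**Figure D1:**
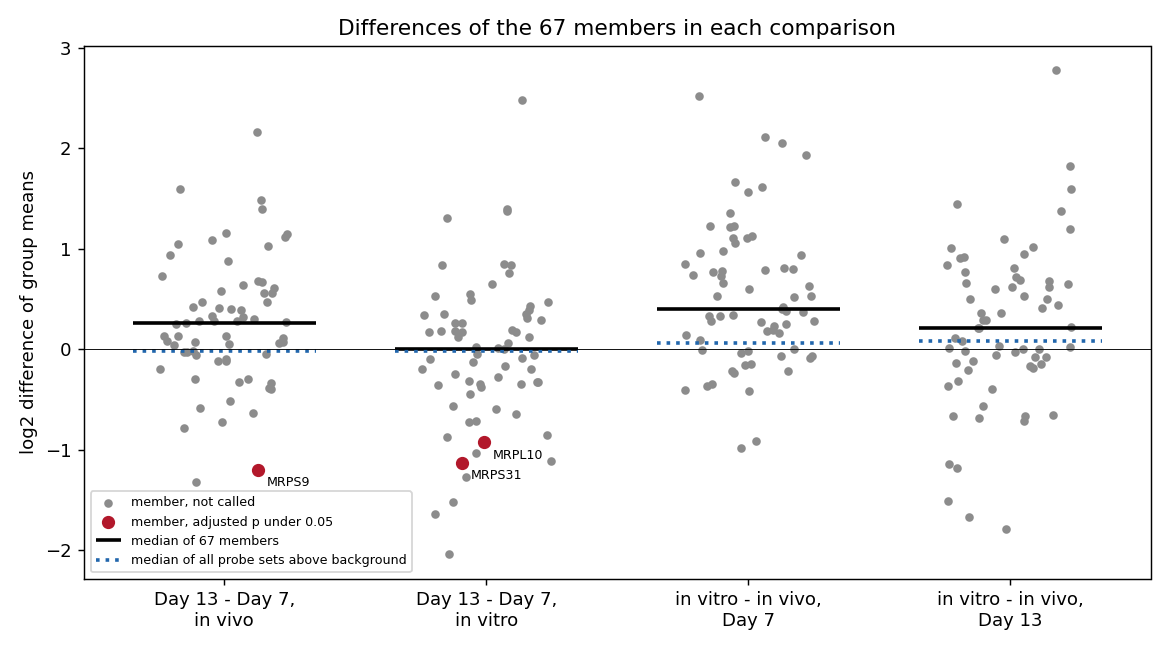
Log2 differences of group means (vertical axis) for the 67 genes in the 4 comparisons between groups (horizontal axis), 1 point per gene, with called genes in red. The black line is the median of the 67 genes and the dotted line the median of all probe sets above background. The medians were 0.26, 0.0025, 0.40 and 0.21 from left to right, and 3 points were called.

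The first comparison was Day 13 against Day 7 in embryos made in vivo. Across all probe sets 3.79% were called, 1.7% higher and 2.09% lower, and of the 67 genes 1, or 1.49%, was called: MRPS9 was lower at Day 13. Of the probe sets above background 8.23% were called, so the family's share was below both. The median difference of the 67 genes was 0.26, against -0.02 over all probe sets above background. It was 0.27 for MRPL genes and 0.02 for MRPS genes. A difference above 0 was seen in 45 of 67 genes (67.2%), against 48.3% of probe sets above background, and 55 genes differed by less than 1 log2 unit in either direction. The majority turned under some other settings. With the GAPDH covariate 17 genes were above 0 (median -0.49), and with arrays centred on cytosolic ribosomal protein genes 20 (median -0.26). It held under others, with 48 above 0 after quantile normalisation, 51 with arrays centred on detected probe sets and 43 with the poly-A spike-in covariate. The settings disagreed, so no direction is given for the family. At an unadjusted p below 0.05 there were 11 genes, or 16.4%, against 27.3% of probe sets above background.

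MRPS9, the counterpart of the bacterial small subunit protein S9, read 7.42, 7.48 and 7.05 in the Day 13 in vivo pools. It read 8.40, 8.21 and 8.95 in the Day 7 in vivo pools. The groups did not overlap, and Day 13 was lower by a difference of -1.20 ± 0.20 (limma adjusted p = 0.0139). Both in vitro groups lay at the lower level too, with 7.91, 7.60 and 7.67 at Day 13 and 7.37, 7.60 and 7.64 at Day 7. The Day 7 in vivo pools were thus the high ones of the 4 groups. The test of the difference in day effect between origins gave 1.40 ± 0.28 and was not called (limma adjusted p = 0.102). The call for MRPS9 was lost when only the 6 arrays compared were fitted (limma adjusted p = 0.187). It was also lost with the GAPDH measure described below as a covariate (limma adjusted p = 0.0709), and when all probe sets of the gene were averaged (difference -0.45, limma adjusted p = 0.121). A second probe set for MRPS9, near background, differed by -0.13. Its Day 7 in vivo pools, at 3.43, 3.36 and 3.72, overlapped its Day 7 in vitro pools, at 3.58, 3.58 and 3.67.

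The largest other differences between groups that did not overlap were positive. MRPL30, a large subunit protein with a bacterial counterpart, read 7.02, 9.15 and 7.51 in Day 13 in vivo pools, against 5.16, 6.42 and 5.62 in Day 7 in vivo pools. Every Day 13 pool was higher, by 2.16 ± 0.67 on average, which did not pass (limma adjusted p = 0.159). MRPL41, a mitochondria-specific protein of the large subunit, read 7.53, 10.18 and 7.93 at Day 13 and 6.78, 6.60 and 7.46 at Day 7. The difference of 1.60 ± 0.68 did not pass (limma adjusted p = 0.334), and Day 13 in vivo replicate 2 was far above the other pools. MRPL20, the counterpart of bacterial L20, read 11.02, 12.31 and 11.09 at Day 13, against 9.68, 9.76 and 10.79 at Day 7. Its difference of 1.40 ± 0.47 did not pass either (limma adjusted p = 0.2), and its other probe set above background differed by 0.77. In all, 6 genes were higher without overlap and 5 lower (8.96% and 7.46%), against 13.4% and 17.2% of probe sets above background.

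The same comparison in embryos made in vitro called 7.51% of all probe sets, 3.55% higher and 3.96% lower, and 2 of the 67 genes, or 2.99%, both lower at Day 13. Of the probe sets above background 16.6% were called, and at an unadjusted p below 0.05 it was 38.6%, against 14.9% of the family. The median difference of the family was 0.0025, against -0.02 over probe sets above background. By name, which does not give the subunit of every gene, it was 0.12 for MRPL and -0.22 for MRPS genes. Differences above 0 were seen in 34 of 67 genes (50.7%), against 48.4% of probe sets above background.

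MRPS31, a mitochondria-specific protein of the small subunit head, read 8.13, 7.93 and 8.38 in Day 13 in vitro pools and 9.11, 9.14 and 9.58 in Day 7 in vitro pools. The groups did not overlap, and the level fell by 1.13 ± 0.17 (limma adjusted p = 0.0062). In the embryos made in vivo the pools read 8.86, 8.62 and 8.95 at Day 13 against 9.26, 9.63 and 9.42 at Day 7. These did not overlap either, with a difference of -0.63 ± 0.17 that did not pass (limma adjusted p = 0.102). The difference in day effect between origins was -0.50 ± 0.24 (limma adjusted p = 0.551), so the fall was not shown to differ between them.

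MRPL10, a protein of the stalk to which the L7/L12-type protein MRPL12 binds, read 10.27, 9.82 and 10.36 in Day 13 in vitro pools. It read 11.10, 11.33 and 10.80 in Day 7 in vitro pools, all above the Day 13 pools. The level fell by 0.93 ± 0.17 (limma adjusted p = 0.0157). In vivo the pools read 10.11, 10.32 and 10.47 at Day 13 and 10.85, 10.90 and 10.91 at Day 7, again without overlap, with a difference of -0.59 ± 0.17 (limma adjusted p = 0.138). MRPL12 itself, which also binds the mitochondrial RNA polymerase, differed by 0.02 ± 0.75 in vitro and by 0.47 ± 0.75 in vivo, and neither passed (it is named here as the partner of MRPL10, outside the rule). The calls of MRPS31 and MRPL10 were lost when the poly-A spike-in level was a covariate (limma adjusted p = 0.245 and 0.353). That level was 9.27, 10.50 and 12.99 in the Day 13 in vitro arrays, against 14.60, 13.34 and 14.15 in the Day 7 in vitro arrays, so it moved with the comparison. Both calls were also lost when only the 6 arrays compared were fitted (limma adjusted p = 0.0701 and 0.139) and when arrays were centred on cytosolic ribosomal protein genes (limma adjusted p = 0.0651 and 0.187). That of MRPL10 was lost without Day 7 in vitro replicate 1 (limma adjusted p = 0.061).

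The largest differences that did not pass ran in both directions. MRPS36 read 11.61, 11.30 and 11.36 at Day 13 and 9.16, 10.19 and 7.46 at Day 7. Despite its symbol its protein is now known as a component of the 2-oxoglutarate dehydrogenase complex. The groups did not overlap, with a difference of 2.48 ± 0.77 (limma adjusted p = 0.103) and a wide spread at Day 7. MRPL23, whose protein lies near the exit of the peptide tunnel, read 8.63, 8.87 and 9.57 at Day 13 and 11.37, 9.78 and 12.04 at Day 7. Every Day 13 pool was lower, with a difference of -2.04 ± 0.86 (limma adjusted p = 0.242). Its other probe sets above background differed by -2.27 and -2.01. MRPL21, named after its values were seen, was lower without overlap by a difference of -1.52 ± 0.51 (limma adjusted p = 0.136). MRPL20, named again from the comparison in vivo and outside the rule here, differed by 1.40 ± 0.47 (limma adjusted p = 0.136). It read 13.00, 12.08 and 11.78 at Day 13 and 11.07, 10.54 and 11.04 at Day 7. There were 11 genes higher and 9 lower without overlap, and of probe sets above background 21.6% were higher and 22.7% lower.

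The day differences of both origins can be set side by side, since they share no arrays. Of the 67 genes 25 had a difference above 0 in both and 13 a difference below 0 in both. Together these were 56.7% of the family, against 64.6% of probe sets above background. MRPL35, the counterpart of bacterial L35 and named after its values were seen, differed by 1.14 ± 0.37 in vivo and 0.83 ± 0.37 in vitro without overlap, and neither passed (limma adjusted p = 0.18 and 0.27).

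In vitro against in vivo blastocysts at Day 7 gave a small number of calls over the whole table, 0.208% of probe sets, 0.378% of those above background, and 0 of the 67 genes (limma). At an unadjusted p below 0.05 there were 10 genes, or 14.9%, against 12% of probe sets above background. The median difference was 0.40 for the family, against 0.06 for probe sets above background. It was 0.60 for MRPL genes, of which 37 of 43 were above 0, and 0.07 for MRPS genes, of which 13 of 24 were. Together that was 50 of 67 (74.6%), against 55.8% of probe sets above background. In 18 genes every in vitro pool was above every in vivo pool (26.9%), against 11.6% of probe sets above background. In MRPS9 alone every in vitro pool was below (-0.98 ± 0.20, limma adjusted p = 0.163), as in 7.06% of probe sets above background. The second MRPS9 probe set, near background, differed by 0.11. Other families had a median of like size. Cytosolic ribosomal protein genes differed by 0.50, with 31 of 64 higher and 0 lower without overlap. Subunits of oxidative phosphorylation differed by 0.51, with 18 of 62 higher and 1 lower without overlap.

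The largest of these differences were in large subunit genes. MRPL30 read 8.81, 7.27 and 8.67 in Day 7 in vitro pools, against 5.16, 6.42 and 5.62 in Day 7 in vivo pools, a difference of 2.52 ± 0.67 (limma adjusted p = 0.381). MRPL41 read 9.13, 8.24 and 9.81 in vitro and 6.78, 6.60 and 7.46 in vivo, a difference of 2.11 ± 0.68 (limma adjusted p = 0.547). MRPL50, a mitochondria-specific protein, read 8.57, 7.36 and 7.96 in vitro and 6.51, 5.68 and 5.53 in vivo, a difference of 2.05 ± 0.62 (limma adjusted p = 0.477). In each of these genes the in vitro pools were all higher, and Day 7 in vitro replicate 2 was the lowest of them. MRPL46, another mitochondria-specific large subunit gene, read 6.38, 4.55 and 6.61 in vitro and, near background, 3.56, 4.04 and 4.14 in vivo. Its difference of 1.93 ± 1.04 (limma adjusted p = 0.836) turned to -1.35 with the GAPDH covariate. MRPS11 is the next gene to MRPL46 in the RefSeq gene order and was looked at for that reason, after its values were seen. It read 8.60, 7.91 and 8.91 in vitro and 6.43, 7.41 and 7.91 in vivo, and the highest in vivo value lay just below the lowest in vitro value. The difference of 1.23 ± 0.54 did not pass (limma adjusted p = 0.766). Between origins at Day 13, MRPS11 differed by -0.17 and MRPL46 by 1.82, and neither passed.

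Of the control measures, that of GAPDH separated the groups of this comparison. The 3' minus 5' difference of the GAPDH control, which is larger where labelled copies stop short of the 5' end, was 3.40, 4.19 and 3.47 on the Day 7 in vitro arrays and 5.58, 5.65 and 5.59 on the Day 7 in vivo arrays, with no overlap. The same measure of cyclophilin overlapped, at 4.23, 4.15 and 4.62 in vitro and 4.54, 5.00 and 5.06 in vivo. So did the poly-A spike-ins, at 14.60, 13.34 and 14.15 in vitro and 14.96, 14.12 and 14.82 in vivo. The mean level of the 67 genes was 9.58, 9.06 and 9.76 in the same in vitro pools and 8.81, 8.87 and 9.14 in the in vivo pools, and here the groups overlapped. With the GAPDH measure as a covariate, a fit added after the data were seen, the family's median difference was -0.40 and 19 of 67 genes were above 0. Centring arrays on cytosolic ribosomal protein genes moved the median over the whole table by -0.55, and the family's median was then -0.15 and 29 genes were above 0. The majority held with quantile normalisation (48 genes above 0), centring on detected probe sets (46) and the poly-A covariate (50). Since settings disagreed, no direction is given for the family at Day 7.

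**Figure D2:**
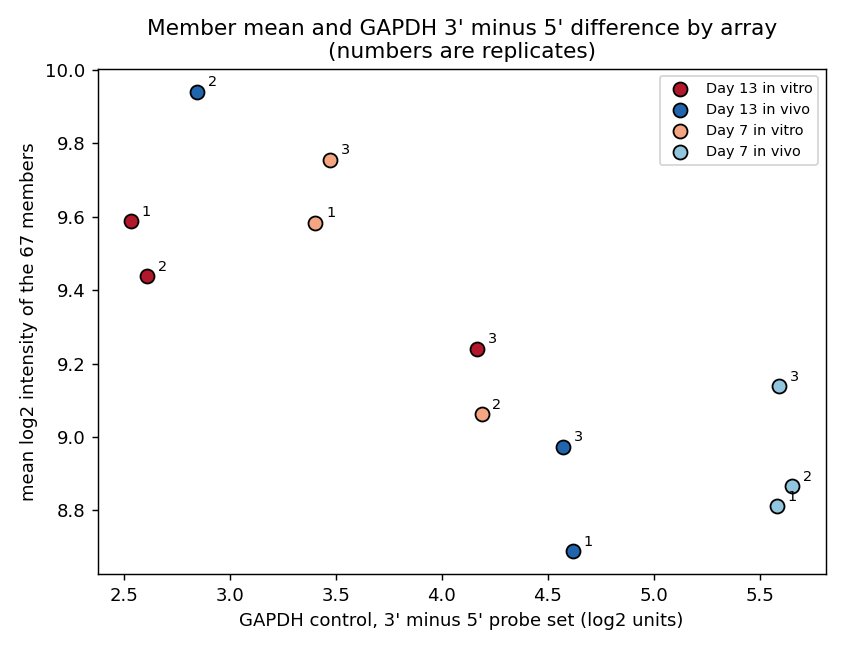
Mean log2 intensity of the 67 genes (vertical axis) against the 3' minus 5' difference of the GAPDH control probe sets in log2 units (horizontal axis), 1 point per array, coloured by group and numbered by replicate. The arrays with the highest family means, Day 13 in vivo replicate 2 at 9.94 and Day 7 in vitro replicate 3 at 9.76, had GAPDH differences of 2.85 and 3.47, and all Day 7 in vivo arrays lay at the right, from 5.58 to 5.65.

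Among Day 13 conceptuses, in vitro against in vivo origin called 1.2% of all probe sets, 2.57% of those above background and 0 of the 67 genes (limma). At an unadjusted p below 0.05 there were 13 genes, or 19.4%, against 29.9% of probe sets above background. The median difference was 0.21, against 0.08 for probe sets above background, and was 0.37 for MRPL and -0.04 for MRPS genes. Differences above 0 were seen in 41 genes (61.2%), against 54.3%. That majority turned too, with 25 genes above 0 with the GAPDH covariate, 31 after quantile normalisation and 32 with arrays centred on detected probe sets. It held with the poly-A covariate (44) and with arrays centred on cytosolic ribosomal protein genes (47). There were 11 genes higher and 4 lower without overlap, and of probe sets above background 18.3% were higher and 11.5% lower.

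MRPL50 had the largest difference of the family. It read 9.67, 9.28 and 7.49 in Day 13 in vitro pools, against 5.56, 6.76 and 5.80 in Day 13 in vivo pools. All in vitro pools were higher, by 2.78 ± 0.62, which missed the threshold (limma adjusted p = 0.0776). It passed when Day 13 in vitro replicate 3, the lowest of its group, was left out (3.44, limma adjusted p = 0.00567), and when only probe sets above background were tested (limma adjusted p = 0.0165). The poly-A spike-ins were at 9.27, 10.50 and 12.99 in the in vitro arrays, against 14.57, 14.53 and 14.25 in the in vivo arrays. They were lowest where MRPL50 was highest, and with their level as a covariate the difference was 1.41 (limma adjusted p = 1).

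MRPS36 read 11.61, 11.30 and 11.36 in vitro and 10.01, 8.66 and 10.81 in vivo, a difference of 1.59 ± 0.77 (limma adjusted p = 0.372). MRPL23 read 8.63, 8.87 and 9.57 in vitro and 9.67, 12.53 and 9.88 in vivo, a difference of -1.67 ± 0.86 (limma adjusted p = 0.42). MRPL52, a mitochondria-specific large subunit protein, read 8.47, 8.44 and 9.72 in vitro and 9.84, 11.06 and 10.26 in vivo, a difference of -1.51 ± 0.46 (limma adjusted p = 0.169). These groups did not overlap, but in both MRPL23 and MRPL52 in vitro replicate 3 lay close to the in vivo pools. MRPS27, a pentatricopeptide repeat protein of the small subunit, was looked at after its values were seen for its uneven in vitro group. It read 9.66, 9.51 and 7.94 in Day 13 in vitro pools, against 7.70, 7.69 and 7.60 in Day 13 in vivo pools, with 7.36 to 7.84 over all Day 7 pools. The difference of 1.37 ± 0.39 between origins did not pass (limma adjusted p = 0.145), and only in vitro replicates 1 and 2 stood above the rest.

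**Figure D3:**
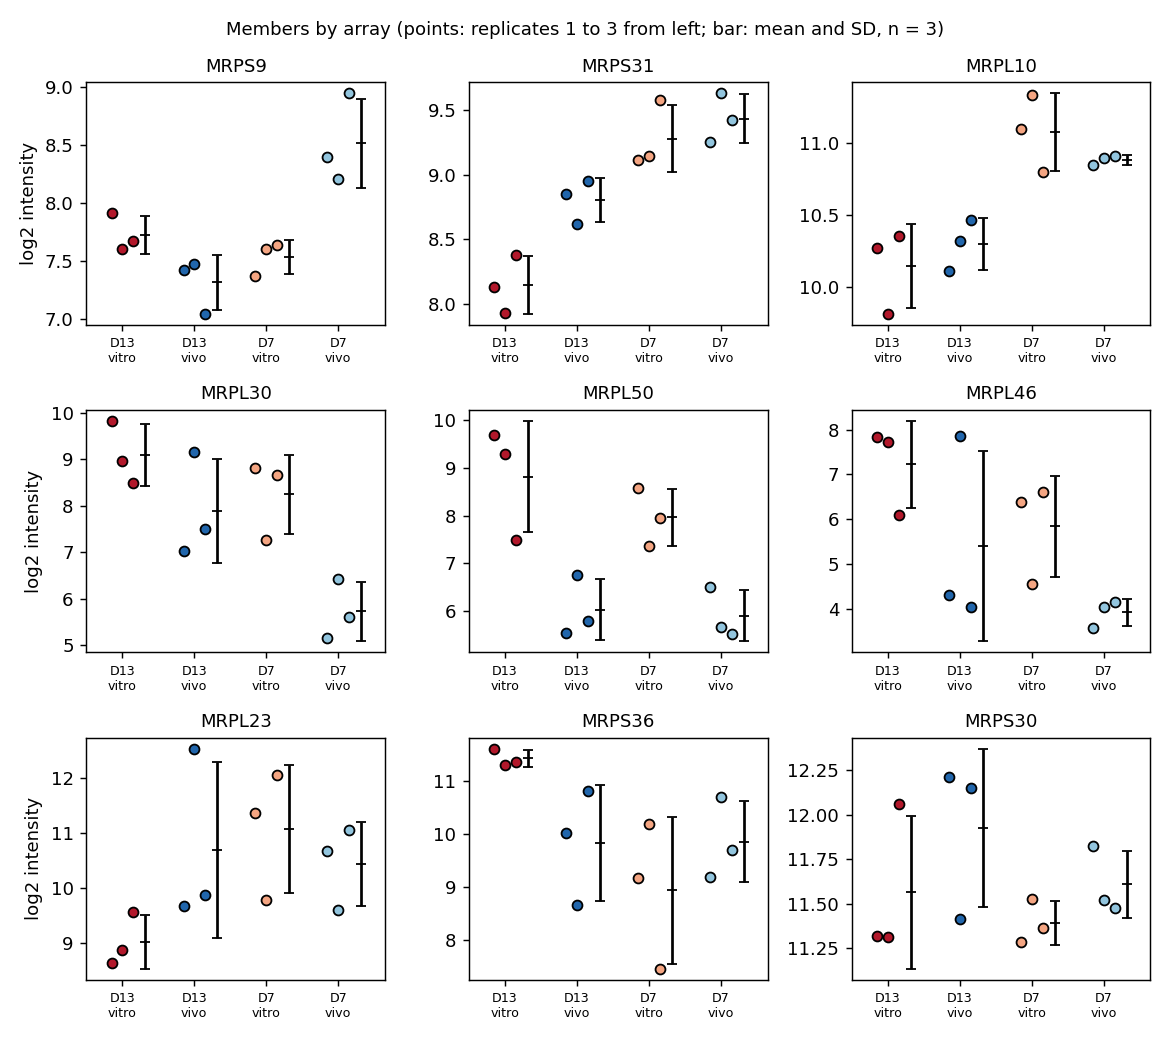
Log2 intensity (vertical axes, each with its own range) of 9 genes in the 4 groups (horizontal axes), with 1 point per array and a bar for the mean ± SD (n = 3). MRPS9, MRPS31 and MRPL10 were called, while MRPL46, MRPL23 and MRPL30 show the high Day 13 in vivo replicate 2.

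The day effect differed between origins in 0.4% of all probe sets and in 0 of the 67 genes (limma). At an unadjusted p below 0.05 there were 8 genes, or 11.9%, against 21.1% of probe sets above background. The median difference in day effect, in vitro minus in vivo, was -0.34, against 0.04 for probe sets above background. It was above 0 in 25 genes (37.3%), against 51.5%, and 0.831% of probe sets above background were called. With the GAPDH covariate 40 genes were above 0, and with arrays centred on cytosolic ribosomal protein genes 46. After quantile normalisation 20 were above 0, with arrays centred on detected probe sets 20, and with the poly-A covariate 19. The largest were MRPS36 at 2.51 ± 1.09, MRPL41 at -2.32 ± 0.96, MRPL23 at -2.30 ± 1.22 and MRPS26, a mitochondria-specific small subunit gene, at -2.21 ± 1.40 (limma adjusted p = 0.49, 0.46, 0.586 and 0.683). MRPS26 read 8.94, 8.76 and 10.08 in Day 13 in vitro pools, 9.22, 12.83 and 11.10 in Day 13 in vivo pools, 11.24, 9.29 and 12.16 in Day 7 in vitro pools, and 10.63, 9.95 and 10.84 in Day 7 in vivo pools. Its Day 13 in vivo values spanned more than the differences between groups. Leaving out Day 13 in vivo replicate 2 changed the family's median difference in day effect to 0.16.

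That replicate was high in most of the family and in related families. Within the Day 13 in vivo group, 54 of 67 genes (80.6%) were highest in replicate 2, against 41.4% of probe sets above background. The mean of the family was 8.69, 9.94 and 8.97 in replicates 1, 2 and 3, and the GAPDH 3' minus 5' difference was 4.62, 2.85 and 4.57. The second such control, cyclophilin, read 4.23, 4.29 and 4.56, so it was not low in replicate 2. The mean of cytosolic ribosomal protein genes was 13.96, 14.78 and 14.15 in the same pools and that of oxidative phosphorylation subunits 10.47, 11.81 and 10.89, both also highest in replicate 2. The group's mean of 9.20 ± 0.66 thus had the widest spread of the 4, against 9.42 ± 0.17 for Day 13 in vitro pools, 9.47 ± 0.36 for Day 7 in vitro pools and 8.94 ± 0.17 for those made in vivo at Day 7. Without replicate 2, the family's median day difference in vivo was -0.20 in place of 0.26.

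Genes differed in how far they followed that array. MRPL46 read 4.31, 7.85 and 4.04 in Day 13 in vivo replicates 1, 2 and 3, so replicate 2 was above the mean of the other two by 3.68. MRPL13, the counterpart of bacterial L13, read 4.62, 8.38 and 5.65, with a gap of 3.25. The gap was 2.89 for MRPL36, 2.82 for MRPS34, 2.64 for MRPL24 and 2.61 for MRPL11, the last of which binds beside the stalk. It was 2.32 for MRPL58, a relative of peptide release factors built into the large subunit, and 2.20 for MRPL12. The 8 genes lowest in replicate 2 included MRPS36 (gap -1.75), MRPS30 (-0.77), MRPL57 (-0.76), MRPL15 (-0.62) and MRPS35 (-0.56). MRPS30 read 12.21, 11.41 and 12.15 in these pools, and its protein lies in the large subunit despite its name. The genes at both ends were ordered by this gap after the values were seen.

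**Figure D4:**
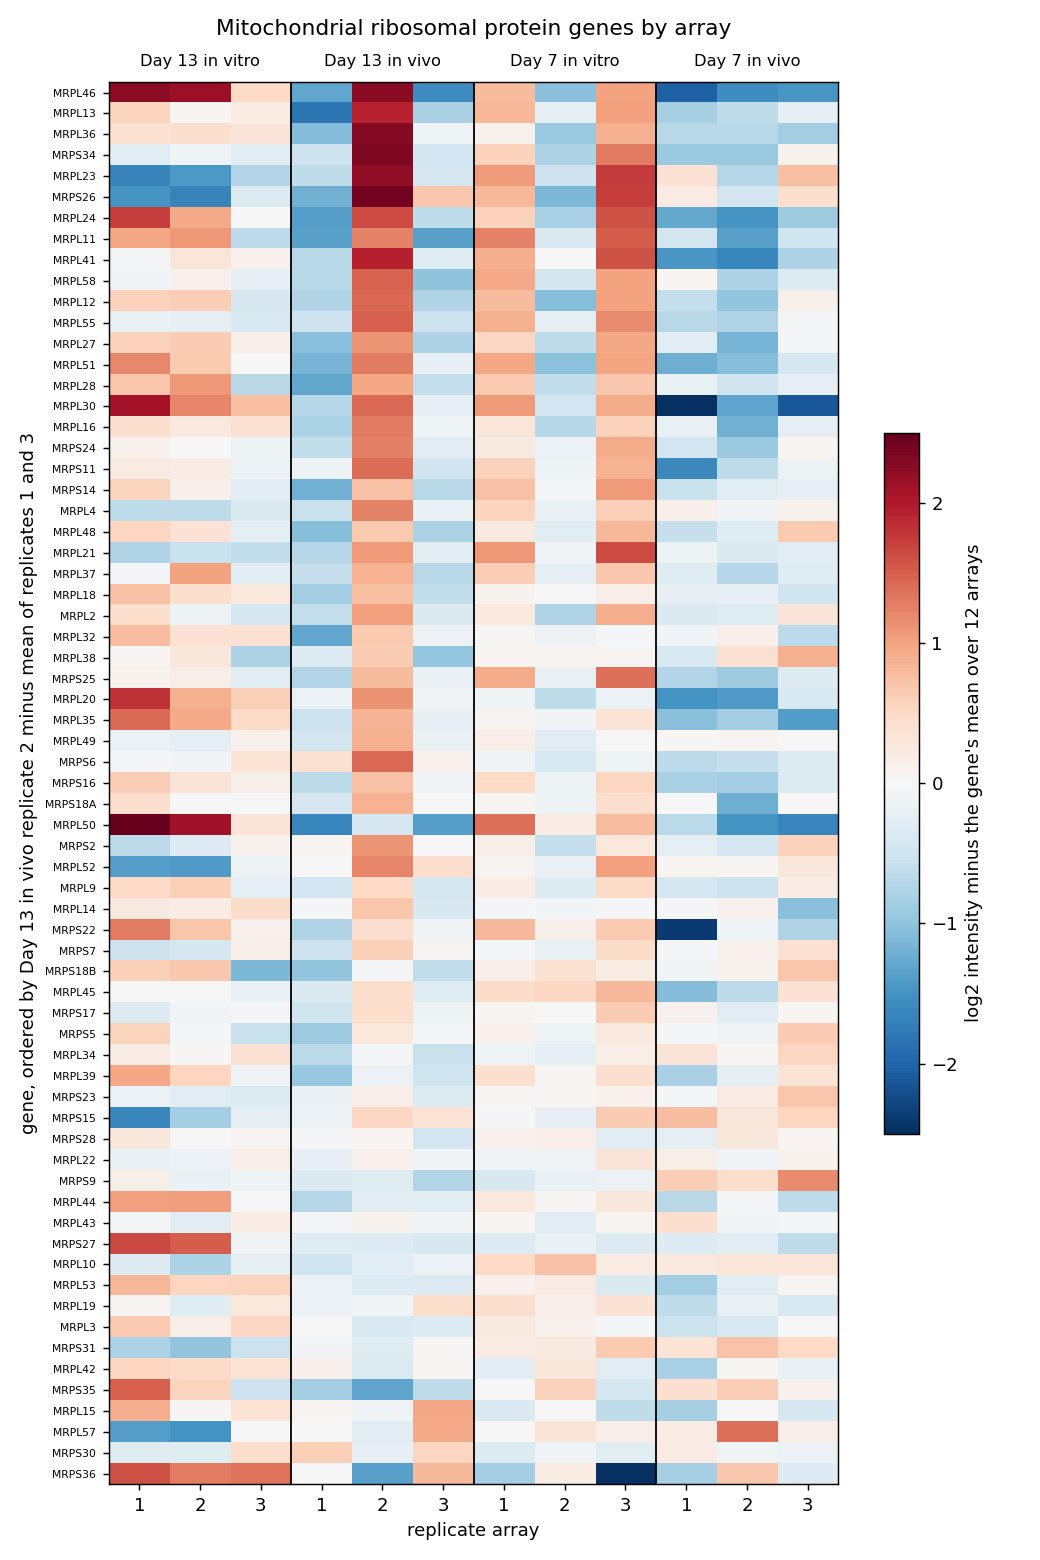
Log2 intensity of each of the 67 genes (vertical, ordered by the gap between Day 13 in vivo replicate 2 and the mean of replicates 1 and 3) on each of the 12 arrays (horizontal, by group), shown as the difference from the gene's own mean over the arrays. Day 13 in vivo replicate 2 and Day 7 in vitro replicate 3 are red over most genes, with 54 and 44 genes at their group's highest value.

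The other groups had smaller shifts of the same kind. In Day 7 in vitro pools 44 of 67 genes (65.7%) were highest in replicate 3, against 33.6% of probe sets above background, and 51 were lowest in replicate 2. In Day 7 in vivo pools 36 (53.7%) were highest in replicate 3, against 34.9%. In Day 13 in vitro pools 33 (49.3%) were highest in replicate 1, against 42%, and 36 were lowest in replicate 3.

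The size of the variation differed between genes. MRPL22, whose protein lines the peptide tunnel, ranged over 0.52 log2 units across all 12 arrays, from 11.38 to 11.90. These genes and the widest ones were picked by their range, a description. MRPL43 ranged over 0.69, MRPS28 over 0.76, MRPS30 over 0.93 and MRPS23 over 1.04. Of these 5 genes all but MRPS30 were still highest in replicate 2 within the Day 13 in vivo group, by 0.15 to 0.42 above the mean of the other two pools. The median range of the family was 2.07, and the widest were MRPL30 at 4.66, MRPL46 at 4.29, MRPS36 at 4.15, MRPL50 at 4.14 and MRPS26 at 4.07. For MRPL43 a second probe set above background did not share the narrow range: it read 10.64, 9.76 and 8.45 in Day 13 in vitro pools and 7.53 to 8.63 in Day 7 in vitro pools.

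Paralogs and repeat probe sets were compared where measured. MRPS18A and MRPS18B are paralogs, of which MRPS18A encodes a large subunit protein. MRPS18A was dim, at 4.96, 4.54 and 4.54 in Day 13 in vitro, 4.13, 5.42 and 4.54 in Day 13 in vivo pools, 4.62, 4.41 and 4.96 in Day 7 in vitro pools and 4.54, 3.33 and 4.54 in Day 7 in vivo pools. MRPS18B read 9.45, 9.55 and 7.75 in Day 13 in vitro, 7.88, 8.84 and 8.25 in Day 13 in vivo pools, 9.04, 9.25 and 9.04 in Day 7 in vitro pools and 8.80, 8.96 and 9.56 in Day 7 in vivo pools. Neither was called in any comparison.

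MRPL42 and MRPL27, proteins of the large subunit, were not called either. MRPL42 read 11.25, 11.20 and 11.05 in Day 13 in vitro, 10.85, 10.38 and 10.77 in Day 13 in vivo pools, 10.43, 11.00 and 10.46 in Day 7 in vitro pools and 9.90, 10.76 and 10.55 in Day 7 in vivo pools. Its Day 13 in vitro pools were the highest of all, with a day difference of 0.53 ± 0.25 (limma adjusted p = 0.291). MRPL27 read 11.75, 11.81 and 11.29 in Day 13 in vitro, 10.13, 12.28 and 10.40 in Day 13 in vivo pools, 11.68, 10.54 and 12.13 in Day 7 in vitro pools and 10.88, 10.02 and 11.13 in Day 7 in vivo pools. Its groups all overlapped.

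Of the 67 genes 14 had more than 1 probe set, and 8 of their 17 other probe sets, for 7 genes, were above background. For MRPL57, named after its values were seen, the probe sets disagreed in sign. Its brighter one differed by -0.34 between days in vivo and -0.41 between origins at Day 7, and the other by 0.93 and 1.77, none of them called. Both gave a negative day difference in vitro, of -1.11 and -2.28. Signs also disagreed elsewhere, among others between days in vivo for MRPL39 (-0.29 and 0.50) and MRPL43 (-0.11 and 0.63). For origin at Day 7 they disagreed for MRPS9 (-0.98 and 0.11, the second near background).

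Members with a bacterial counterpart (39 genes) and mitochondria-specific members (28 genes) were set side by side, without a test of their difference. Their medians were 0.26 and 0.20 for the day difference in vivo, 0.02 and -0.05 in vitro, 0.40 and 0.38 for origin at Day 7, 0.22 and 0.05 for origin at Day 13, and -0.35 and -0.13 for the difference in day effect. For origin at Day 13, 4 genes with a bacterial counterpart (10.3%) and 9 of the mitochondria-specific ones (32.1%) had an unadjusted p below 0.05, against 29.9% of probe sets above background. The order was reversed between days in vivo, at 20.5% and 10.7%, against 27.3%. The shares were 12.8% and 17.9% between days in vitro, against 38.6%, and the same for origin at Day 7, against 12%. For the difference in day effect they were 10.3% and 14.3%, against 21.1%. Without overlap, for origin at Day 13, 7.69% of those with a bacterial counterpart and 28.6% of the mitochondria-specific ones were higher, against 18.3%. Between days in vivo the shares were 12.8% and 3.57%, against 13.4%, and in vitro 17.9% and 14.3%, against 21.6%. For origin at Day 7 they were 25.6% and 28.6%, against 11.6%. No trait of either class is read from these shares.

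Other nuclear genes that serve mitochondrial translation were read from lists of factors, enzymes and assembly proteins. Shares of a list are over all its measured genes, those under background included. A list of mitochondrial tRNA synthetases, which charge tRNAs inside the organelle, had 15 measured genes, 12 of them above background. It also took in GATB and GATC, which are not synthetase genes. Of the 15 genes 3 were lower at Day 13 in vivo (20%, against 8.23% of probe sets above background). In vitro 1 was higher and 3 lower (26.7%, against 16.6%). RARS2, for arginine, read 8.53, 8.63 and 8.77 in Day 13 in vivo pools and 9.57, 9.85 and 10.04 in Day 7 in vivo pools. It fell by 1.17 ± 0.13 in vivo (limma adjusted p = 0.00227) and by 1.21 in vitro (limma adjusted p = 0.0013), where it read 8.39, 8.59 and 8.69 at Day 13 and 9.68, 9.92 and 9.71 at Day 7. The Day 13 pools of both origins lay below every Day 7 pool.

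HARS2, for histidine, read 7.56, 7.63 and 7.90 in Day 13 in vivo pools and 9.21, 8.55 and 9.23 in Day 7 in vivo pools. It fell by 1.30 ± 0.21 in vivo (limma adjusted p = 0.0122). It fell by 1.48 in vitro (limma adjusted p = 0.00468), where it read 7.64, 7.66 and 7.93 at Day 13 and 9.37, 8.92 and 9.38 at Day 7. LARS2, for leucine, read 2.99, 2.99 and 3.89 in Day 13 in vitro pools, mostly under background, against 7.46, 7.46 and 7.04 in Day 7 in vitro pools. Its Day 13 in vivo pools read 4.88, 3.60 and 6.36, against 7.40, 8.82 and 7.67 at Day 7. With 1 of 3 Day 13 in vitro arrays above background, the level there is only partly measured. The fitted difference was -4.03 in vitro (limma adjusted p = 0.00938), and the level fell by 3.01 ± 0.67 in vivo (limma adjusted p = 0.0478). For LARS2 the in vivo call depended on 5 arrays, each of which ended it when left out: Day 13 in vivo replicates 1 and 2 and all Day 7 in vivo replicates (limma adjusted p = 0.0814 to 0.142).

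MARS2, for methionine, ran the other way. It read 6.81, 6.36 and 5.75 in Day 13 in vitro, 4.39, 4.40 and 4.53 in Day 13 in vivo pools, 4.25, 4.40 and 4.67 in Day 7 in vitro pools and 5.36, 5.05 and 4.78 in Day 7 in vivo pools. The Day 13 in vitro pools were the highest, and every Day 7 in vivo pool lay above the Day 7 in vitro and Day 13 in vivo pools. In the Day 13 in vitro pools MARS2 was higher by 1.87 ± 0.26 against Day 7 in vitro (limma adjusted p = 0.00416) and by 1.87 ± 0.26 against Day 13 in vivo (limma adjusted p = 0.0156). Both calls were lost with the poly-A covariate (limma adjusted p = 0.167 and 0.667), and that against Day 13 in vivo without Day 13 in vitro replicate 2 (limma adjusted p = 0.06).

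Among 11 translation factors, GFM1, an elongation factor that moves the ribosome along the message, was the only one called (9.09% of the list for each of its 2 calls, against 8.23% of probe sets above background between days in vivo and 2.57% between origins at Day 13). It read 11.40, 11.08 and 11.29 in Day 13 in vitro, 9.71, 9.62 and 10.53 in Day 13 in vivo pools, 10.57, 10.81 and 10.48 in Day 7 in vitro pools and 11.27, 11.16 and 11.21 in Day 7 in vivo pools. In vivo it fell by 1.26 ± 0.22 at Day 13 (limma adjusted p = 0.0174), and among Day 13 pools it was 1.30 ± 0.22 higher in vitro than in vivo (limma adjusted p = 0.0338). The first call did not survive the omission of Day 13 in vivo replicate 1 or of any Day 7 in vivo array (limma adjusted p = 0.0508 to 0.0612). The second did not survive the omission of replicate 1 or replicate 2 of either Day 13 group (limma adjusted p = 0.0697 to 0.138).

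A list of ribosome assembly and rRNA modification had 22 measured genes, 17 of them above background. The list also took in GTPBP3, MTO1 and TRMU, which act on tRNAs. Only 1 gene, or 4.55% of the 22, was called, below the share of probe sets above background in both day comparisons. This was NGRN, which acts on the RNA of the large subunit. It read 8.29, 8.37 and 8.53 in Day 13 in vivo pools and 9.49, 9.39 and 9.67 in Day 7 in vivo pools, and 8.15, 8.24 and 7.89 in Day 13 in vitro pools against 9.69, 8.92 and 9.57 in Day 7 in vitro pools. It fell by 1.12 ± 0.20 in vivo (limma adjusted p = 0.0172) and by 1.30 in vitro (limma adjusted p = 0.00616). Omission of Day 13 in vivo replicate 1, or of replicate 1 or 3 of the Day 7 in vivo group, ended the in vivo call (limma adjusted p = 0.0541 to 0.0575). Of 26 import genes 2 (7.69%, against 16.6%) were higher at Day 13 in vitro. They were the chaperonin gene HSPD1 and TIMM21, a subunit of the inner membrane translocase (0.80 ± 0.18, limma adjusted p = 0.0321). Omission of replicate 1 or 2 of the Day 13 in vitro group, or of replicate 2 or 3 at Day 7, ended the call for TIMM21 (limma adjusted p = 0.0903 to 0.123). With the poly-A covariate, all 7 calls of these related genes between days in vitro were lost (limma adjusted p = 0.0716 to 0.819). With the GAPDH covariate, the calls between days in vivo of GFM1, HARS2 and LARS2 were lost (limma adjusted p = 0.177, 0.107 and 0.383).

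Of 12 genes of mitochondrial transcription and DNA replication, 10 of them above background, 0 were called in any of the 5 comparisons (limma). Nor was any called of a list of 6 genes for mitoribosomal proteins under other symbols, of which OXA1L is not a ribosomal protein gene.

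Cytosolic ribosomal protein genes (64 measured) had 3 higher and 0 lower at Day 13 in vivo (4.69%, against 8.23% of probe sets above background), and 0 called in the other 4 comparisons (limma). Subunits of oxidative phosphorylation (62 measured) had 0 higher and 1 lower at Day 13 in vivo (1.61%, against 8.23%), and 2 higher and 4 lower in vitro (9.68%, against 16.6%). Between origins at Day 7, 1 was lower (1.61%, against 0.378%). Their median day difference in vitro was -0.38, beside 0.0025 for the mitochondrial ribosomal protein genes and -0.12 for the cytosolic ones, which was not tested as a difference between families.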

How the data were processed

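The authors deposited normalised log2 intensities, 1 value per probe set and array. RMA, GCRMA and limma are named, without versions or roles, per the submitters' processing notes. Whether RMA or GCRMA made them is not known. Per the labels' protocols, 75 ng of total RNA was labelled over 2 cycles. The platform's gene annotation gave 13292 probe sets exactly 1 symbol. All 67 gene symbols and IDs matched RefSeq.

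Tests excluded 112 control probe sets. Background was set at 3.39 after the data were seen, as the 99th percentile of the 48 controls without any added target. It was exceeded on at least 3 arrays by 10591 probe sets.

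A model with 4 group means was fitted with limma 3.58.1 in R 4.3.3 (lmFit and eBayes without trend, 8 residual and 0.379 prior degrees of freedom). Tests were two-sided, with Benjamini-Hochberg adjustment over 24016 probe sets. Precision is limited by the number of arrays, and read depth does not apply. The labels call arrays of a group biological replicates. They do not say whether recipients or donors were shared, so p-values measure the spread between these pools. The script was tested on simulated data.

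The genes, the lists of related genes and the tests were chosen with earlier results of these data known. Named genes were all called members and, where fewer than 4 were called, the largest differences without overlap up to 4, plus MRPS18A, MRPS18B, MRPL41, MRPL42 and MRPL27. Genes of the related lists were named where called.

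Replicate numbers did not pair arrays across groups: 3 of 18 same-numbered pairs correlated above 0.1, with a median r of -0.0642. Alternatives were quantile normalisation, centring on detected probe sets or on cytosolic ribosomal protein genes, only probe sets above background, only the arrays compared, a replicate block, eBayes with trend, a poly-A covariate, averaged probe sets, leaving out each array, and a GAPDH 3' minus 5' covariate added after the data were seen.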

Additional observations from a re-analysis of the deposited data

Results flagged for a closer look

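The day effect of MARS2, the mitochondrial methionine tRNA synthetase gene, differed between origins: Day 13 minus Day 7 was 2.49 ± 0.37 higher in vitro than in vivo (limma adjusted p = 0.0378). This interaction is what marked it. MARS2 is a related gene and no ribosomal protein. It was higher in all 3 Day 13 in vitro pools than in every other pool. The Day 7 in vivo pools, with a mean of 5.06, lay above those of Day 7 in vitro and Day 13 in vivo, both with a mean of 4.44. The interaction thus holds both a rise in vitro and a lower level at Day 13 in vivo. The adjusted p ran from 0.00164 to 0.223 over the alternatives, and the call was lost on leaving out any array other than Day 13 in vitro replicates 1 and 3 and Day 7 in vivo replicate 3 (adjusted p = 0.0534 to 0.103), with the replicate block (0.11) and with the poly-A covariate (0.223). Its difference stayed between 2.24 and 2.77 when arrays were left out in turn.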

How the results depend on the processing

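The count of the 67 genes called depended on the settings, while the 3 called genes kept their direction in all of them. For Day 13 against Day 7 in vivo (1 called), 2 were called with arrays centred on detected probe sets, with the poly-A covariate or with the GAPDH covariate, 3 with only probe sets above background and 4 with arrays centred on cytosolic ribosomal protein genes. There were 0 with only the arrays compared, with the replicate block and with averaged probe sets, and 1 to 2 when arrays were left out in turn (MRPL34 joined without Day 13 in vivo replicate 2 and MRPS6 without replicate 3). For Day 13 against Day 7 in vitro (2 called), 6 were called with only probe sets above background, 4 with the GAPDH covariate, 1 with the replicate block, and 0 with only the arrays compared or the poly-A covariate. Leaving arrays out gave 1 (without Day 7 in vitro replicate 1) to 6 (without Day 13 in vitro replicate 3). For origin at Day 7 (0 called), centring on ribosomal protein genes called 1, MRPS9, and leaving arrays out gave 0 to 0. For origin at Day 13 (0 called), 10 were called with arrays centred on detected probe sets, 1 with centring on ribosomal protein genes, 3 with only probe sets above background, and 0 to 7 with arrays left out (7 without Day 13 in vitro replicate 3, and 1, MRPL18, without Day 13 in vivo replicate 2). For the difference in day effect (0 called), centring on ribosomal protein genes called 2, and leaving arrays out gave 0 to 1 (1 without Day 13 in vitro replicate 3). The replicate block ended the calls of MRPS9 (adjusted p = 0.0561) and MRPL10 (adjusted p = 0.0535) and left that of MRPS31. Among the related genes it ended those of GFM1, LARS2 and NGRN in vivo, TIMM21 in vitro, GFM1 and MARS2 between origins at Day 13, and MARS2 for the day effect, and changed no other named call. Fitting only the arrays compared ended the in vivo calls of GFM1, HARS2, LARS2 and RARS2, the in vitro calls of MARS2, NGRN and TIMM21, and both calls at Day 13. The calls of GFM1 and MARS2 at Day 13 were also lost with the poly-A covariate (adjusted p = 0.973 and 0.667) and the GAPDH covariate (0.0517 and 0.0566), that of GFM1 also with quantile normalisation (0.0777) and centring on ribosomal protein genes (0.0602), that of TIMM21 with that centring (0.0503) and the GAPDH covariate (0.0559), and that of LARS2 in vivo with quantile normalisation (0.0509) and the poly-A covariate (0.0741).

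The family's median moved by more than the pooled spread of 0.445 between replicate arrays in 3 comparisons, given with its range over left-out arrays. Between days in vivo it was -0.26 with centring on ribosomal protein genes, -0.49 with the GAPDH covariate and -0.20 to 0.48 with arrays left out. For origin at Day 7 it was -0.15, -0.40 and 0.33 to 0.63, and for the difference in day effect 0.32, 0.19 and -0.60 to 0.16 under the same settings. In the other comparisons it ran from -0.34 to 0.16 between days in vitro and -0.22 to 0.52 between origins at Day 13, within that spread but on both sides of 0. MRPL46 reversed at Day 7 with the GAPDH covariate (-1.35, adjusted p = 0.791). The cause of these changes was not tested.

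Over all probe sets, calls ran from 241 (only the arrays compared) to 1794 (centring on ribosomal protein genes) around 911 between days in vivo, 197 (poly-A covariate) to 2898 (without Day 13 in vitro replicate 3) around 1804 in vitro, 3 (only the arrays compared) to 116 (without Day 7 in vivo replicate 2) around 50 for origin at Day 7, 0 (only the arrays compared) to 12836 (centring on detected probe sets, which moves all values at the floor together) around 288 for origin at Day 13, and 11 (poly-A covariate) to 1083 (without Day 13 in vitro replicate 3) around 96 for the difference in day effect. The share of calls that were higher was 44.8%, 62%, 53.8% and 36.5% in all comparisons but that between days in vitro. It moved by over 10 points to 19.3%, 27.3% and 74.5% in vivo, for origin at Day 7 and for the difference in day effect with centring on ribosomal protein genes. Quantile normalisation gave 50% and 43.4% for origin at Day 7 and Day 13, and centring on detected probe sets 42.3% and 9.44%. Centring on detected probe sets moved the median of all probe sets by 0.11, 0.03, -0.18, -0.25 and -0.08 in the 5 comparisons, and centring on ribosomal protein genes by -0.52, 0.14, -0.55, 0.11 and 0.66.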
